A study of Nicotiana tabacum with 8 samples.

Results

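Dehydrins, LEA proteins and ASR proteins are small, hydrophilic plant proteins that accumulate when cells lose water, and many of their genes respond to abscisic acid, the hormone of drought and seed maturation. Here 7 such genes were followed in tobacco seedlings, out of 34725 coding sequences listed in every library. They were listed by their tomato identifiers, a choice made with earlier results of these data known, and comprise 3 dehydrins, 1 LEA gene and 3 ASR genes. The dehydrins were TAS14 (Solyc02g084850), Solyc02g084840, which carries the next number on chromosome 2, and a dehydrin of chromosome 4 (Solyc04g082200). The LEA gene was LE25 (Solyc10g078770), and the ASR genes were ASR1 (Solyc04g071610), ASR2 (Solyc04g071580) and ASR4 (Solyc04g071620), which are close in number on chromosome 4.

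Dehydrins are LEA proteins of group 2 and are thought to shield membranes and other proteins from drying. LE25 is a LEA protein of another group, and such genes are best known from maturing seeds and from leaves under drought. ASR stands for abscisic acid, stress and ripening, and ASR proteins, first described in tomato, bind zinc and act both as protective proteins and in the nucleus.

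Shoot tips of Nicotiana tabacum cv. Samsun, holding the apical meristem and the terminal leaves, were collected after 10 days of culture in closed vessels on MS medium with sucrose. Control seedlings (4 libraries) had no fungus in the vessel. TC09-exposed seedlings (4 libraries) shared the air of the vessel with a culture of Cladosporium sphaerospermum strain TC09, and the question was which genes change with its volatiles. The exposure tag and source name of the labels set the groups, whereas the treatment text describes culture without exposure for all 8 libraries. Per the labels each library pools the 3 seedlings of a vessel, whereas the methods of the study speak of replicate plants. Reads of tobacco were counted on tomato sequences, so a value sums only the reads that match a tomato gene, from whichever tobacco copies they come. Names and roles are those of tomato. In bulk tissue, fewer cells that express a gene and less RNA per cell cannot be told apart.

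The libraries held 7853857 to 9674090 reads assigned to genes. Levels are given as CPM (read counts scaled to the same total per library, after TMM), or, where genes are compared with each other, as TPM, which also corrects for coding length. Exposed replicate 2 correlated least with the other libraries of its group (mean r of log2 CPM 0.967, against 0.974 to 0.983 for the rest). Of 19325 genes tested with edgeR, 9.56% were higher and 12% were lower after exposure at an adjusted p of 0.05 or less.

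Of the 7 genes, 6 passed the filter on low counts, and LE25 did not. After exposure 1 of the 6 was lower (TAS14) and 0 of 6 were higher (edgeR). At an unadjusted p under 0.05, TAS14 was lower and 0 of 6 were higher in edgeR, DESeq2 and limma-voom, beside 6826 of the 19325 genes in either direction in edgeR. The chromosome 4 dehydrin was higher at that unadjusted level in 2 other edgeR fits, with scaling by total library size and without exposed replicate 1. The median log2 fold change of the 6 was 0.082, and that of all genes tested was 0.012. The groups of libraries overlapped in all 6 (LE25, outside this count, is described below). Over all genes tested, every exposed library lay above every control in 11.5% and below every control in 13.4%. With only 6 genes, this is not read as a difference from those shares.

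On the TPM scale the chromosome 4 dehydrin was the highest of the 7 genes, with 268 to 608 TPM over the 8 libraries. TPM here rests on tobacco reads that matched tomato sequences. How well each gene matched was not tested, so this order need not be that of the transcripts. Its level exceeded that of 98.6% of the genes with any read. ASR1 followed with 196 to 305 TPM, ASR2 with 129.6 to 245 TPM and ASR4 with 64.3 to 90.7 TPM. The order from the chromosome 4 dehydrin over ASR1 and ASR2 to ASR4 was found in all 8 libraries. TAS14 lay between 10.1 and 127 TPM and Solyc02g084840 between 4.93 and 50.4 TPM. These neighbours in the order were not separated by their spread, since TAS14 was the higher of the pair in only 6 of 8 libraries and exceeded ASR4 in 1. LE25 was at the bottom in every library, from 0 to 3.63 TPM.

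**Figure D1:**
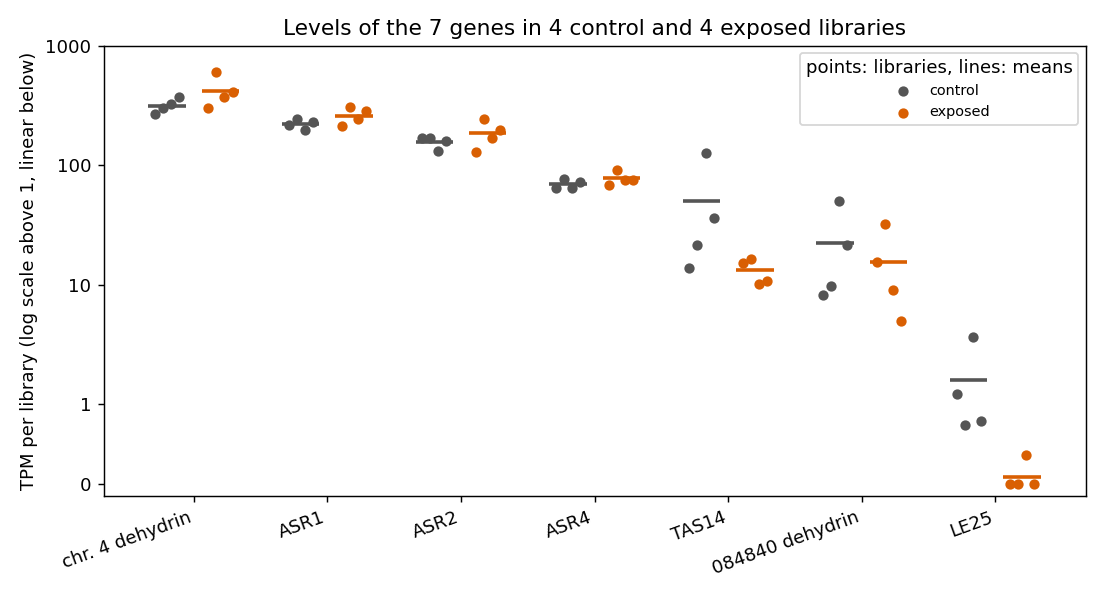
TPM of the 7 genes in each library (points) with group means (lines), control in grey and TC09-exposed in orange, on a log axis above 1 TPM and a linear axis below. In each of the 4 genes of highest TPM, the points of both groups overlap. Control replicate 3 stands high in TAS14, Solyc02g084840 and LE25, and LE25 is at 0 in 3 exposed libraries.

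TAS14, a dehydrin of tomato induced by salt and abscisic acid, was lower after exposure. The control libraries had 6.16, 9.79, 53.5 and 15.1 CPM (replicates 1 to 4), from 51, 86, 413 and 136 reads. The exposed libraries had 6.23, 6.03, 4.06 and 4.75 CPM, from 57, 54, 41 and 42 reads. The exposed values were tightly grouped and 3 of the 4 lay below the lowest control, while the controls spanned 8.69-fold, and the groups overlapped by exposed replicate 1. The means were 21.1 ± 21.9 CPM in the control and 5.27 ± 1.04 CPM in the exposed libraries (SD, n = 4 each). The log2 fold change was -2.0 (standard error, SE, 0.598, 95% interval -3.32 to -0.67, adjusted p = 0.0379, edgeR).

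Control replicate 3 held 60.2% of the control reads of TAS14. Without it the control mean was 10.3 ± 4.48 CPM (SD, n = 3), the log2 fold change was -0.97, and the call was lost (adjusted p = 0.0593, edgeR). The call was also lost in limma-voom (log2 fold change -1.49, adjusted p = 0.118) and without exposed replicate 1, 3 or 4 (adjusted p = 0.0788, 0.0940 and 0.0830, edgeR), where the log2 fold changes were -2.09, -1.88 and -1.94. With DESeq2 it remained (adjusted p = 0.0233). All of these fits gave a lower level after exposure, and the size of the fall rested on control replicate 3.

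Solyc02g084840, the dehydrin next to TAS14 by number, did not pass the test. It had 4.35, 5.35, 25.5 and 10.7 CPM in the control libraries and 7.66, 14.3, 4.36 and 2.60 CPM in the exposed libraries. Control replicate 3 was again the highest library, at 2.38 times the next control, and the groups overlapped between 4.35 and 14.3 CPM. The log2 fold change was -0.66 (SE 0.602, 95% interval -2.0 to 0.67, adjusted p = 0.464, edgeR). Without control replicate 3 its sign turned, to 0.087 (adjusted p = 0.933, edgeR). As a ratio the interval runs from 0.250 to 1.59, so a change within these bounds, and its direction, were not resolved.

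**Figure D2:**
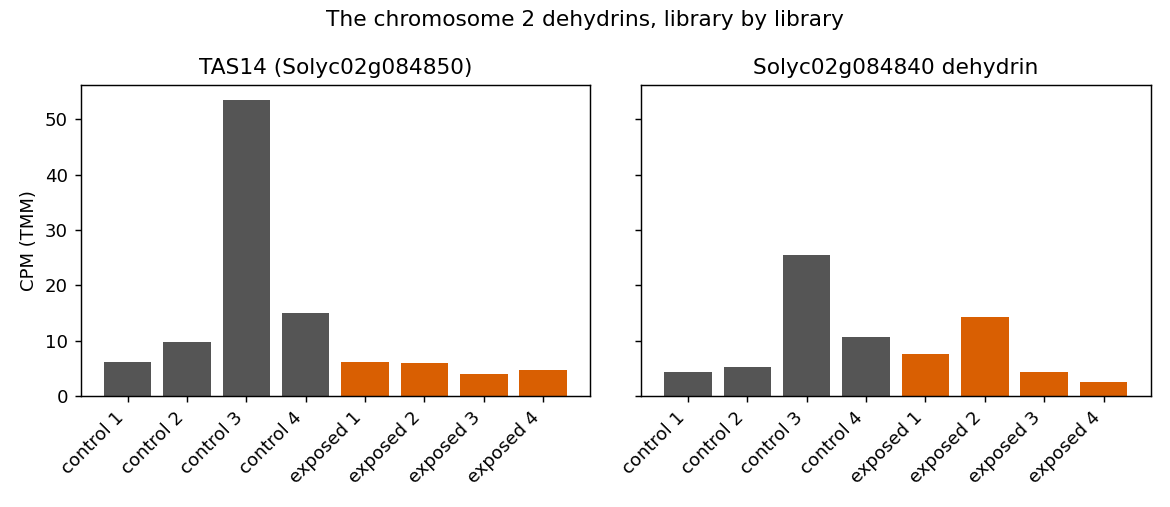
CPM of TAS14 and of Solyc02g084840 in each library as bars, control in grey and TC09-exposed in orange. Control replicate 3 is the tallest bar in both panels (53.5 and 25.5 CPM), and exposed replicate 2 is high only for Solyc02g084840 (14.3 CPM).

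Both chromosome 2 dehydrins varied far more within groups than most genes, TAS14 through its controls. Its highest library was 8.69 times its lowest in the control and 1.54 times in the exposed group. For Solyc02g084840 these values were 5.87 and 5.50. Over both groups, the biological coefficients of variation were 53.1% for TAS14 and 57.4% for Solyc02g084840, against a common value of 16.5%. Their spread within groups on the log2 CPM scale exceeded that of 99.0% and 99.4% of the genes tested. TAS14 had 1.40 to 2.09 times the reads of Solyc02g084840 in the control libraries. In the exposed libraries this ratio was 0.816, 0.424, 0.933 and 1.81, below the controls in 3 of 4. The ratio differed by -0.92 on the log2 scale between the groups, and the difference did not pass (exact permutation test, two-sided, p = 0.0857, 0.257 after adjustment over 6 pairs).

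**Figure D3:**
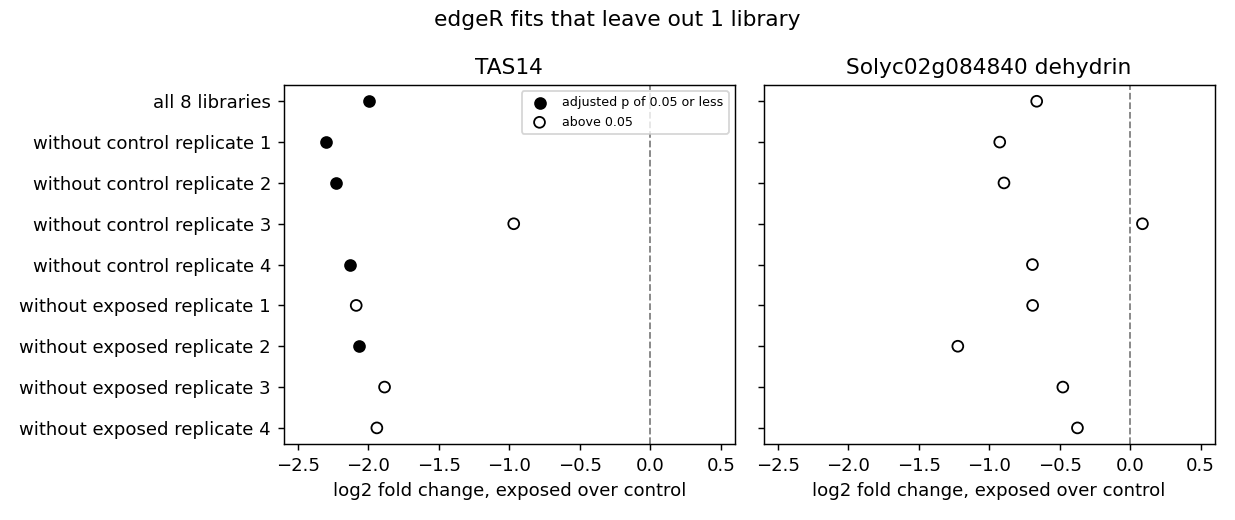
Log2 fold change (exposed over control, edgeR) of TAS14 and Solyc02g084840 with all 8 libraries and with each library left out in turn, filled where the adjusted p was 0.05 or less. TAS14 moves from -2.0 to -0.97 without control replicate 3, and Solyc02g084840 crosses to 0.087.

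LE25 was read in all 4 control libraries and in 1 exposed library. The control libraries had 3, 2, 8 and 2 reads, and the exposed libraries 0, 0, 1 and 0. Every exposed library lay below every control, as in 10.6% of the 26833 genes with at least 1 read. The exposed to control ratio from 1 and 15 reads was 0.0608, with an exact binomial 95% interval of 0.00144 to 0.395 that covers counting error only. A count of 0 allows up to 3 reads, or 0.328 to 0.339 CPM in the 3 exposed libraries without a read, which is above the level in control replicates 2 and 4 (0.228 and 0.222 CPM). Against those controls, a fall in a single exposed library was not detectable at this depth.

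The edgeR fit without the filter called 8.08% of genes lower. In it the log2 fold change of LE25 was -3.49 with an SE of 1.01 (adjusted p = 0.0373, edgeR). The log2 fold change and its SE depend on the prior count of 0.125, and no other was tried. Control replicate 3 supplied 53.3% of the control reads of LE25. Without that library the adjusted p was 0.124 (log2 fold change -2.79, edgeR). The call was also lost without control replicate 1 or any one of the exposed libraries (adjusted p = 0.0579 to 0.0985, edgeR). It remained in 5 of 11 alternatives, with adjusted p from 0.0154 (limma-voom, log2 fold change -2.59) to 0.0394 (edgeR without control replicate 4). DESeq2 gave an unadjusted p of 0.00631 and no adjusted p. TAS14, Solyc02g084840 and LE25 all had their highest level in control replicate 3, whereas ASR1 and ASR4 had their lowest there.

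The chromosome 4 dehydrin did not pass the test either, and its mean was higher after exposure, whereas that of TAS14 was lower. The control libraries had 187, 215, 215 and 242 CPM and the exposed libraries 193, 350.3, 236 and 285 CPM. Exposed replicate 2 was the highest, and 3 of 4 exposed libraries lay above the control mean. The means were 215 ± 22.3 CPM and 266 ± 67.4 CPM (SD, n = 4 each). The log2 fold change was 0.31 (SE 0.168, 95% interval -0.065 to 0.68, adjusted p = 0.219, edgeR), and without exposed replicate 2 it was 0.15. A rise of more than 1.60-fold lies outside the interval.

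Since a ratio of 2 genes within a library does not depend on the scaling, the dehydrins were also compared with each other. TAS14 had 0.0332 to 0.249 times the reads of the chromosome 4 dehydrin in the control libraries and 0.0169 to 0.0325 times in the exposed libraries. These ranges do not overlap, though only narrowly. The difference of -1.79 on the log2 scale had the smallest p that 4 against 4 libraries can give (exact permutation test, two-sided, p = 0.0286), which was 0.171 after adjustment over the 6 pairs. Its size rested on control replicate 3, whose ratio was 0.249 against 0.0332 to 0.0625 in the other controls, and without that library the difference was -1.18 (exact permutation test, p = 0.0571, the smallest that 3 against 4 can give). The ratio of Solyc02g084840 to the chromosome 4 dehydrin differed by -0.87 (exact permutation test, p = 0.314, 0.600 adjusted), and by -0.37 without control replicate 3.

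The 3 ASR genes showed no change that passed the test, and their intervals were narrower than those of the chromosome 2 dehydrins. ASR1, the tomato gene for which the family is best known, had 81.8, 92.9, 69.9 and 81.5 CPM in the control libraries and 73.7, 94.4, 82.4 and 105 CPM in the exposed libraries. The exposed range contained most of the control range. The log2 fold change was 0.12 (SE 0.126, 95% interval -0.16 to 0.40, adjusted p = 0.516, edgeR), which bounds a change to between 0.898-fold and 1.32-fold.

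ASR2 had 65.9, 67.9, 48.6 and 57.6 CPM in the control and 46.4, 78.4, 59.6 and 75.5 CPM in the exposed libraries. Its highest and its lowest library were both exposed ones. The log2 fold change was 0.11 (95% interval -0.26 to 0.49, adjusted p = 0.666, edgeR). Of its reads 88.0% were unique, the lowest share of the 7 genes, so ASR2 is less certain as a separate gene, and with unique reads alone the value was 0.084.

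ASR4, whose coding sequence of 894 bp is longer than the 333 bp of ASR1 and the 345 bp of ASR2, was the steadiest. It had 64.9, 78.8, 61.5 and 68.1 CPM in the control and 63.9, 75.3, 68.6 and 75.5 CPM in the exposed libraries. The means were 68.3 ± 7.49 CPM and 70.8 ± 5.62 CPM (SD, n = 4 each). This gave a log2 fold change of 0.051 (95% interval -0.17 to 0.27, adjusted p = 0.749, edgeR). Its coefficient of variation of 11.4% was the lowest of the 6 tested genes.

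**Figure D4:**
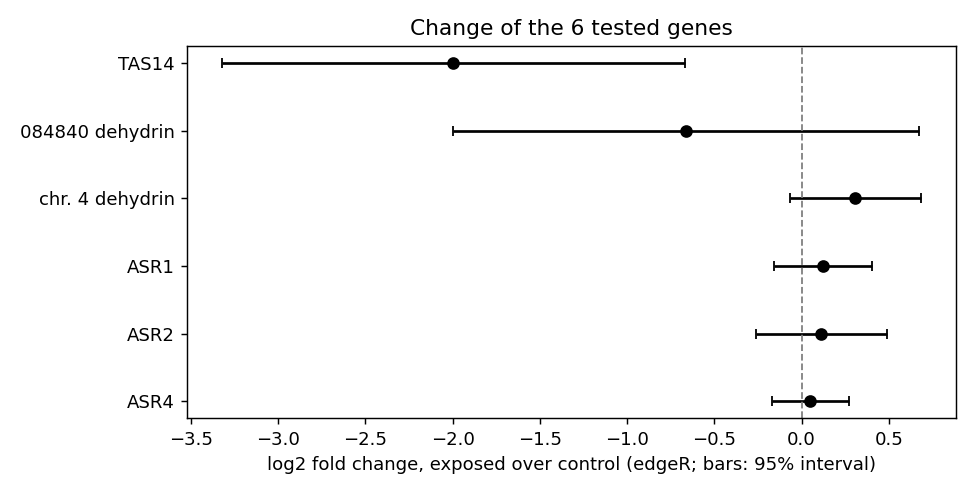
Log2 fold change (exposed over control, edgeR, 4 libraries a group) of the 6 tested genes with 95% intervals. The interval of TAS14 (-3.32 to -0.67) excludes 0, those of the other 5 genes include it, and the intervals of the chromosome 2 dehydrins are the widest.

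The proportions of the ASR genes within a library showed no group difference that passed the test. ASR1 had 1.24 to 1.44 times the reads of ASR2 in the control libraries and 1.20 to 1.59 times in the exposed libraries. The group differences were 0.022 for ASR1 over ASR2, 0.064 for ASR1 over ASR4 and 0.042 for ASR2 over ASR4 on the log2 scale (exact permutation tests, two-sided, p = 0.943, 0.400 and 0.771, or 0.943, 0.600 and 0.926 after adjustment over the 6 pairs). On the TPM scale the 3 ASR genes made up 54.0 ± 7.91% of the summed level of the 7 genes in the control and 54.2 ± 3.25% in the exposed libraries (SD, n = 4 each). The chromosome 2 pair made up 19.8% in control replicate 3, 2.97% to 6.49% in the other controls and 1.60% to 4.15% in the exposed libraries, and the groups overlapped with and without control replicate 3.

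Solyc04g071590 and Solyc04g071600 have numbers between those of ASR2 and ASR1, and are named for that position after their values were seen. Neither passed the test (log2 fold changes 0.25 and 0.13, adjusted p = 0.316 and 0.628, edgeR). Of the 42 listed genes within 50 numbers of any of the 7, 26 were tested, 6 were higher and 1 was lower. That is 26.9%, against 21.6% of all genes tested. Of the called neighbours, the one lower was Solyc04g082250, near the chromosome 4 dehydrin, which had the largest change and fell from 893 to 494 CPM (log2 fold change -0.85, adjusted p = 0.00192, edgeR). The 2 most changed of the higher ones were Solyc04g071650, near ASR4, which rose from 279 to 485 CPM (0.80, adjusted p = 0.0091, edgeR), and Solyc10g078740, near LE25 (0.60, adjusted p = 0.0322).

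The pattern most like that of TAS14 over the 8 libraries was found in Solyc01g091140 (Pearson r of log2 CPM 0.962) and Solyc07g042550 (0.961), neither of which is paired with a name in the files. They were picked for that likeness, so a peak in control replicate 3 (4.93 and 75.2 CPM) and lower exposed means (1.86 against 2.98 CPM, and 21.8 against 44.1 CPM) follow from the choice and are given as a description.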

How the data were processed

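Quality-trimmed reads were aligned by the authors to Solanum lycopersicum with the default settings of CLC Genomics Workbench (version 10), and 1 table a library was deposited with counts of total and unique gene reads and with TPM. For the tomato annotation no release was given in the sources used here. These deposited TPM are total gene reads per coding length, scaled to the same sum in each library. The labels give both 50 bp and 100 bp reads.

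The edgeR package (version 4.0.16, R version 4.3.3) was run on total gene reads with quasi-likelihood F tests, with group as the only term, after filterByExpr at its defaults (a count of 10 in the median library, a total of 15). TMM factors were 0.938 to 1.10, the prior count was 0.125, and the Benjamini-Hochberg adjustment ran over all 19325 genes. LE25 was below the filter and is given from the same model fitted to 26833 genes. Standard errors are the log2 fold change over the square root of F. Ratios of 2 members used counts plus 0.5 in libraries with at least 10 reads of both, with exact permutation tests. The model was tested on simulated data. The alternatives were RLE scaling, total library size, no filter, a mean of 50 reads, DESeq2 (version 1.42.0), limma-voom (limma version 3.58.1), unique reads, an adjusted p of 0.01 and leaving out each library.

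The members, the neighbour rule and the lists were chosen with earlier results of these data known. Named besides the members are the 2 genes most like the called member of highest TPM and the most changed called neighbours. Names come from the selection of the genes, since the files hold no descriptions and the tobacco gene table used here holds no Solyc numbers. For that reason no sequence, marker check of the tissue or list of other abscisic acid genes was used here. The labels do not say whether libraries were prepared separately, so p-values measure only the spread between these libraries, and any step that followed the library numbers (9 to 12 control, 13 to 16 exposed) cannot be told apart from the exposure.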

Additional observations from a re-analysis of the deposited data

Results flagged for a closer look

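One value stood apart from the other libraries of its group among 14 sets of 4 libraries examined. It was LE25 in exposed replicate 3, at 0.0990 CPM, where the other 3 exposed libraries had none. The value is a single read, and with none in the other 3 exposed libraries any read would have been flagged. TAS14 in control replicate 3 (53.5 CPM, against 6.16 to 15.1 in the other controls) did not reach Dixon's limit for 4 libraries.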

How the results depend on the processing

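No paired analysis was possible because the labels number the libraries without a number shared between the groups. The chromosome 4 dehydrin, ASR1, ASR2 and ASR4 kept their direction and an adjusted p above 0.05 under all 16 alternatives. No member was higher under any of the 16. The adjusted p of 0.01 is a stricter threshold on the main fit, so it could not change a direction or add a call. The number of members that were lower went from 1 to 0, with the call of TAS14, in limma-voom (-1.49), at an adjusted p of 0.01 (-2.0) and without control replicate 3 or exposed replicate 1, 3 or 4. Over the fits without 1 library that number was 0 to 1, and the log2 fold change of TAS14 ran from -2.30 to -0.97, with adjusted p from 0.0225 to 0.0940 (to 0.118 over all alternatives). That of Solyc02g084840 ran from -1.22 to 0.087, its only change of sign being without control replicate 3. That of LE25, in fits without the filter that were added after the data were seen, ran from -5.01 to -2.79. The ratio of TAS14 to the chromosome 4 dehydrin ran from -2.15 to -1.18, where an exact test of 3 against 4 libraries cannot go below p = 0.0571. ASR1 over ASR2 ran from -0.044 to 0.090 (below 0 without control replicate 1, -0.022, or exposed replicate 1). ASR2 over ASR4 ran from -0.028 to 0.15 (below 0 without control replicate 3 or exposed replicate 4, -0.0061 and -0.0085, or exposed replicate 2). The count of all called genes, 4165, fell to 2636, 2648 and 2741 without control replicate 1, control replicate 3 or exposed replicate 1, to 1732 at an adjusted p of 0.01, and was 5436 without exposed replicate 2. Scaling by total library size moved the median of all genes from 0.012 to 0.11 and the lower share of calls from 55.6% to 35.3%, and the ASR values to 0.15 to 0.22. LE25, at under 1.04 CPM in every library, is limited by its low read counts, and why they were low was not tested.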
